A study of Mus musculus with 30 samples.

Results

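The antibody transcripts of mouse blood were described here through the probes of an expression array that read immunoglobulin heavy chain, kappa and lambda light chain and J chain sequences. The rule for choosing them asked for probe names that begin with Igh, Igk or Igl, plus the J chain, and for a signal flagged as well above background on 4 or more arrays in any of the groups of 5. Read literally, that rule found 9 probes, of which 5 passed the signal criterion and none is named for a constant region, because most antibody probes on this array carry a transcript number in the name column. The rule was therefore also applied to the array's description column, which gave 220 probes among 39429, and 173 of them passed among 23617 that passed in all. The 173 comprised 17 constant-region probes of 19, 155 variable-segment probes of 199 and the J chain probe. The probe for Igll1, a part of the surrogate light chain of B cell precursors, did not pass, and neither did a further probe each for Ighe and Ighg1. In 13 of the 173 the best group had exactly 4 arrays well above background, and in 5 of the 47 that did not pass it had exactly 3.

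The study asked how p38 mitogen-activated protein kinase signalling bears on estimating radiation dose from blood gene expression. Total RNA came from blood of male C57BL/6J mice of the genotypes p38DKI, p38DN and p38WT (names as the labels give them, without a definition of DKI or DN and without an age). Blood was drawn by cardiac puncture at euthanasia, into an RNA stabilising solution. In each genotype, blood of mice given 7 Gy of x-rays and sampled 24 h later was compared with blood of unirradiated mice (0 Gy), with 5 arrays in each of the 6 groups. The labels describe 5 independent experiments without numbering animals, so p-values measure the spread between these arrays.

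An antibody is built from paired heavy and light chains. The variable part of each chain comes from a V segment that was joined to D and J or to J segments by DNA rearrangement. The constant part comes from a separate gene. Heavy chains use Ighm and Ighd for IgM and IgD, and the Ighg genes, Ighe and Igha for the switched classes IgG, IgE and IgA. Light chains use Igkc for kappa and Iglc genes for lambda. Naive B cells make IgM and IgD from the same primary transcript by alternative splicing and display both on their surface, while plasma cells secrete large amounts of a single class. The J chain, encoded by Jchain outside the antibody loci, links units of secreted IgM and IgA. In blood these transcripts come from circulating B cells and plasma cells.

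The probes that carry the constant-region results are shown first, each 60 bases long and printed 5′ to 3′ from the array's design, with its position in the mouse build mm9 and strand as the scanner files give them. They lie in the heavy chain locus on chromosome 12 and the kappa locus on chromosome 6. The Igh-VJ558 probe is shown because its name is that of a heavy variable family, whereas its position is 1.3 kb and 1.2 kb from the Igha probes and 328.13 kb from the nearest probe described as a heavy variable segment, Ighv2-2. It was counted as variable by its name, so the 155 variable and 70 heavy variable probes include it. Its log2 changes after irradiation were -1.275 in p38DKI, -0.70 in p38DN and -1.22 in p38WT, to be read beside those of Igha below. Which transcripts it binds was not tested.
Ighd (chr12:114654277-114654336, minus strand): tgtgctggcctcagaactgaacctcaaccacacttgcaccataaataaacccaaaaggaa
Ighm (chr12:114659630-114659689, minus strand): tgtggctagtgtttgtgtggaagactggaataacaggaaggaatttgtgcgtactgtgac
Igha (chr12:114496985-114497044, minus strand): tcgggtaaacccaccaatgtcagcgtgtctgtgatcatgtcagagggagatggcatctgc
Igh-VJ558 (chr12:114498348-114498407, minus strand): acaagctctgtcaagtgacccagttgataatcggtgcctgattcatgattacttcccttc
Igkc (chr6:70676692-70676751, plus strand): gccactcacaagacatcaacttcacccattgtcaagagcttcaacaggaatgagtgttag

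Another set shows why neighbouring probes are not independent readings. The Iglc3 pair on chromosome 16 overlaps, and 4 kappa probes of the Igkv3 family share an identical run of 26 bases. The 4 lie at 3 segments, since the Igkv3-10 pair overlaps. Igkv8-28 and Igkv6-17 belong to different families and share 40 bases. Capitals mark the run that is identical within each of these sets.
Iglc3 probe 1 (chr16:19065462-19065521, minus strand): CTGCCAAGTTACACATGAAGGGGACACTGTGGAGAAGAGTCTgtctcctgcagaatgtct
Iglc3 probe 2 (chr16:19065480-19065539, minus strand): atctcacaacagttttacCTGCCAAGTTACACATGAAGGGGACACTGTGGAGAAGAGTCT
Igkv3-10 probe 1 (chr6:70523153-70523212, plus strand): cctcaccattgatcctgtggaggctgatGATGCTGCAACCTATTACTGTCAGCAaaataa
Igkv3-10 probe 2 (chr6:70523164-70523223, plus strand): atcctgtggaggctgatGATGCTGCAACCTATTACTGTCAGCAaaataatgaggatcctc
Igkv3-4 probe 2 (chr6:70622312-70622371, plus strand): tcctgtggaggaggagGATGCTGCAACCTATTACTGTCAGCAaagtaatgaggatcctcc
Igkv3-12 (chr6:70468774-70468833, plus strand): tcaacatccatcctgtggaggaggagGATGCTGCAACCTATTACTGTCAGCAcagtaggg
Igkv8-28 (chr6:70093587-70093646, minus strand): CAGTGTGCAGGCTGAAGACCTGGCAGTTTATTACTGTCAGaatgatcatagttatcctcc
Igkv6-17 (chr6:70321926-70321985, plus strand): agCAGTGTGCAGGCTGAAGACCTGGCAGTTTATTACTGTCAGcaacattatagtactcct
Among the 155 variable probes, 71 shared a run of at least 20 bases with a probe for a differently named segment, in 92 pairs with a longest run of 53 bases. Signals of such probes can include transcripts of the other segment, so values are given for probes and the segment behind each is uncertain.

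A level below is the log2 of a probe's processed signal minus the 75th percentile of its array on the same scale, so 0 is a probe at that percentile and a difference of 1 is a factor of 2. Levels of different probes were not compared, because probes differ in brightness. The 75th percentile lay at intensities of 43.3 to 230.4 and 39.72% to 63.24% of probes were well above background on each array. As a check of the labelled tissue, the mean level of 14 platelet markers was 4.66 to 7.84 and that of 16 erythroid markers 2.19 to 6.10 over the 30 arrays. Some arrays also carried transcripts of other organs. Liver markers (38 measured of 40) had mean levels of -2.46 to 8.06 in irradiated p38DKI, -2.68 to 2.50 in unirradiated p38DKI, -2.23 to 2.24 in irradiated p38DN, -0.72 to 6.83 in unirradiated p38DN, -2.98 to -1.465 in irradiated p38WT and -3.57 to -2.69 in unirradiated p38WT arrays. Irradiated p38DKI array 2 and unirradiated p38DN arrays 2, 4 and 5 stood more than 5 above the median array in that list, and the counts and calls that change most without these arrays are given with and without them. Heart muscle markers (10 measured of 19) were high on irradiated p38WT array 2, irradiated p38DN array 3 and unirradiated p38WT arrays 1 and 3. The p38DN arrays were on slides of their own and were scanned on other days than the p38DKI and p38WT arrays. Each p38DN slide held both doses, whereas p38DKI and p38WT had 1 such slide each. Dose and slide thus largely went together in p38DKI and p38WT.

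Irradiation was followed by lower antibody signal in each genotype. By limma with Benjamini-Hochberg adjustment over all 23617 probes, 145 of the 173 probes fell and 0 rose in p38DKI blood, 98 fell and 1 rose in p38DN blood, and 141 fell and 0 rose in p38WT blood (adjusted p under 0.05). Over all probes, the share that fell was 18.8% in p38DKI, 10.5% in p38DN and 12.1% in p38WT, and the share that rose was 11.9%, 18.1% and 15.3%. The median log2 change of the 173 was -2.47 in p38DKI, -1.36 in p38DN and -2.725 in p38WT, beside medians of -0.24, 0.02 and -0.03 over all probes. At an unadjusted p under 0.05, 89% of the 173 were lower and 0% higher in p38DKI, 65.3% lower and 2.31% higher in p38DN, and 86.1% lower and 0% higher in p38WT, beside 26.9%, 16.4% and 17.7% of all probes lower and 16%, 23.1% and 19.9% higher. When the arrays highest in liver markers were left out, 141, 116 and 144 of the 173 fell in p38DKI, p38DN and p38WT, and the p38DN median was -2.003. Because 66 of the 173 passed the signal criterion through unirradiated groups alone, against 2 through irradiated groups alone, these counts lean towards falls and describe the probes without supporting a claim about them. With no signal criterion, 165, 92 and 144 of the 220 probes fell in p38DKI, p38DN and p38WT. Their median log2 changes were -2.23, -1.10 and -2.23, beside -0.445, -0.018 and 0.102 over all probes without the criterion. The share of all probes that fell without the criterion is not given, and the shares above do not apply to these counts. In blood as a whole, fewer cells of a type and less RNA per cell cannot be told apart.

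All 5 irradiated arrays lay below all 5 unirradiated arrays for 136 of 173 probes in p38DKI blood, 52 in p38DN blood and 134 in p38WT blood. Over all probes the shares were 12.4%, 7.58% and 11.2%. A negative change, whatever its p, was found for 173, 157 and 167 of the 173 probes. Many of the falls ended below the level that the scanner's software calls well above background. No irradiated array was well above background for 24 of the 145 probes that fell in p38DKI, 17 of the 98 in p38DN and 50 of the 141 in p38WT. For these only a lower bound on the fall can be given, with a median of at least 3.045-fold in p38DKI (24 probes), 2.83-fold in p38DN (15 probes) and 2.705-fold in p38WT (48 probes).

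The 5 probes found by the name column alone were Jchain, Igh-V3660, Igh-VJ558, Igkv4-53 and Igkv4-72. None of them passed the limma test at an adjusted p under 0.05 in any genotype, and at an unadjusted p under 0.05 2 were lower in p38DKI, 0 in p38DN and 1 in p38WT, beside 26.9%, 16.4% and 17.7% of all probes. Igkv4-72 passed in p38DN without the arrays highest in liver markers (-0.91, adjusted p = 0.0263).

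The IgD heavy chain gene Ighd, expressed mainly by naive B cells, had the largest fall of the 173 probes in p38DKI and p38WT blood. Its level was -1.755, -3.59, -1.18, -2.14 and -1.29 on the irradiated p38DKI arrays, against 5.15, 6.21, 5.97, 4.88 and 5.20 on the unirradiated p38DKI arrays. In p38DN blood it was 0.345, -0.53, 0.33, -0.88 and -0.28 on irradiated arrays, against 3.685, 3.855, 4.44, 2.54 and 2.65 on unirradiated arrays. In p38WT blood it was -2.09, -1.84, -1.24, -1.185 and -1.385 on irradiated arrays, against 5.275, 5.49, 5.20, 5.785 and 4.97 on unirradiated arrays. Irradiated and unirradiated arrays did not overlap in any genotype, and the gap was widest in p38DKI and p38WT. The fall was 177-fold in p38DKI (log2 change -7.47, SE 0.386, limma adjusted p = 2.12e-13), 12.4-fold in p38DN (-3.64, adjusted p = 1.32e-07) and 119-fold in p38WT (-6.89, adjusted p = 8.64e-13). Without the arrays highest in liver markers the p38DN fall of Ighd was 19.2-fold (log2 change -4.265, adjusted p = 2.31e-08). The SE is the same in each genotype, as each group had 5 arrays and the fit shared the residual spread. On the slides that held both doses, the Ighd difference was -7.10 in p38DKI (1 slide), -4.38 to -2.94 in p38DN (5 slides) and -6.70 in p38WT (1 slide).

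The IgM heavy chain gene Ighm, the companion of Ighd on naive B cells and also the transcript of IgM-secreting cells, changed less than Ighd in each genotype, a difference that is tested within arrays further on. Its level was 1.25, 0.22, 1.46, 1.10 and 1.79 on irradiated p38DKI arrays, against 3.49, 4.05, 4.39, 3.88 and 3.62 on unirradiated p38DKI arrays. In p38DN it was 3.59, 3.03, 1.49, 1.83 and 3.85 on irradiated arrays, against 3.93, 3.925, 4.24, 3.06 and 3.18 on unirradiated arrays. In p38WT it was 0.85, 0.81, 1.60, 0.82 and 1.2 on irradiated arrays, against 4.17, 4.02, 3.84, 4.38 and 3.60 on unirradiated arrays. The doses did not overlap in p38DKI or p38WT, while in p38DN irradiated arrays 1, 2 and 5 lay near or within the unirradiated range. Ighm fell 6.59-fold in p38DKI (-2.72, SE 0.352, limma adjusted p = 2.12e-06) and 7.7-fold in p38WT (-2.945, adjusted p = 6.5e-07). In p38DN the difference of -0.91 did not pass the test (adjusted p = 0.0525). It passed without the arrays highest in liver markers (-1.33, adjusted p = 0.0228), without irradiated p38DN array 1 or 5 (-1.12 and -1.18, adjusted p = 0.0227 and 0.0126) and without unirradiated p38DN array 4 or 5 (-1.06 and -1.03, adjusted p = 0.0342 and 0.0421). Within slides the Ighm difference was -2.71 in p38DKI, -2.745 to 0.67 in p38DN and -2.51 in p38WT. With the slide as a fixed block, which rests in p38WT on the 1 slide of both doses, the p38WT difference of Ighm did not pass.

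**Figure D1:**
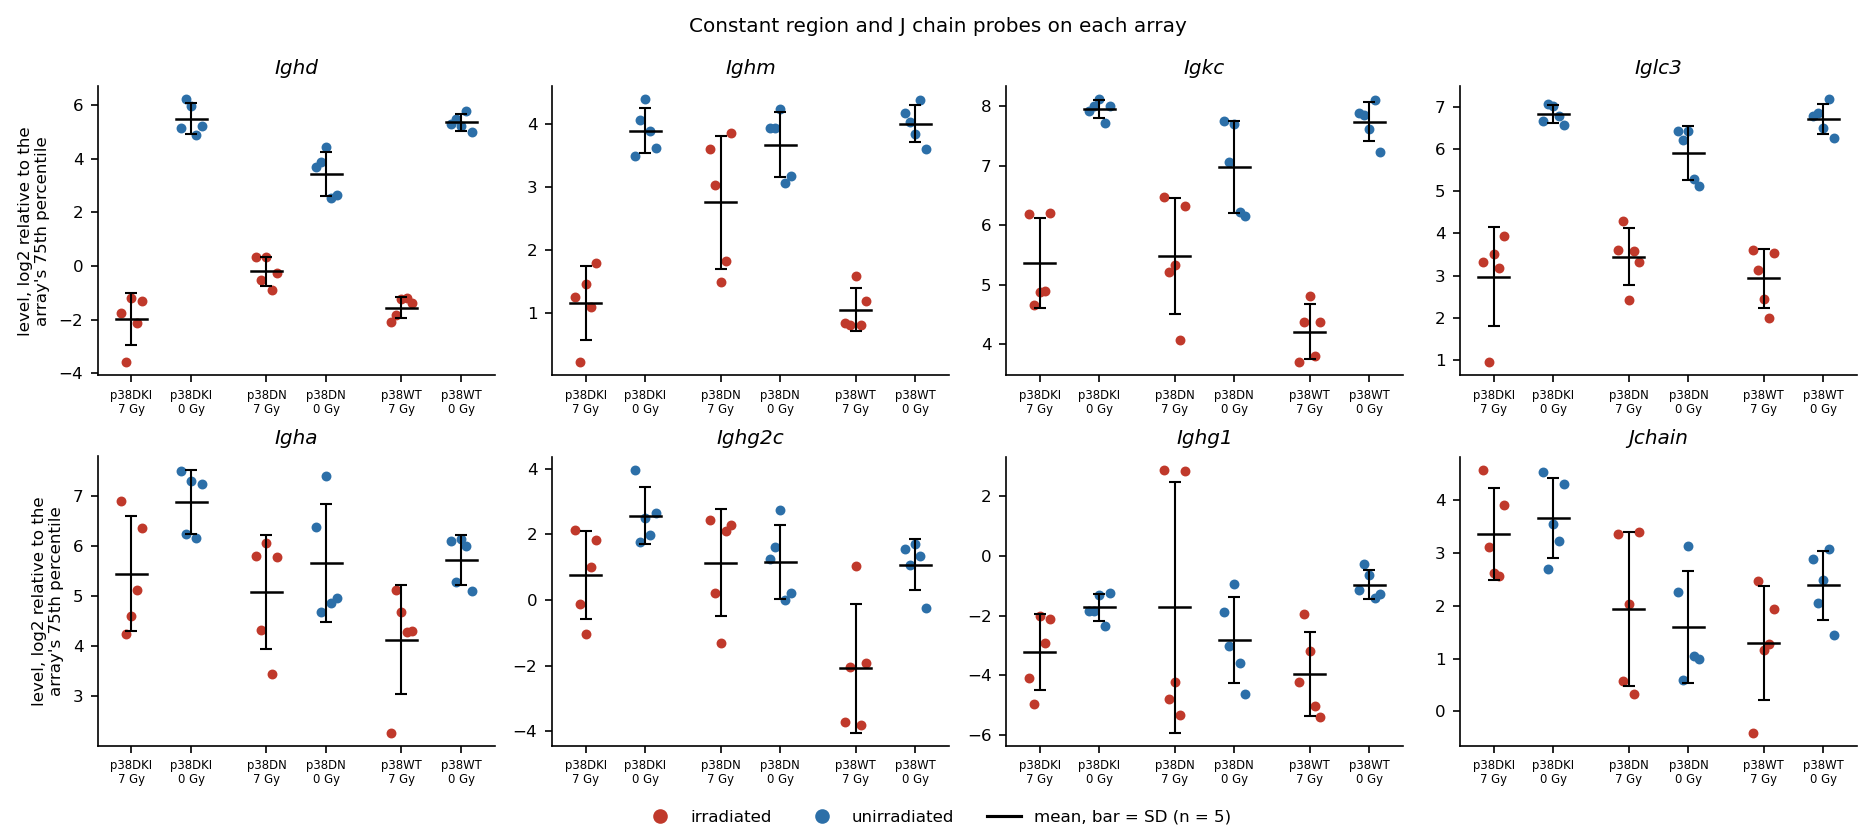
Levels of 8 antibody genes on each array (points), with group means and SD (n = 5 arrays a group), in log2 of the processed signal relative to the array's 75th percentile; genotypes p38DKI, p38DN and p38WT run left to right, each with 7 Gy left of 0 Gy. Ighd and Iglc3 show no overlap between the doses in any genotype, while Jchain overlaps in every genotype.

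Light chains are part of every antibody class, and Igkc fell in each genotype. Igkc, the kappa constant region, had levels of 6.19, 4.67, 4.87, 4.89 and 6.20 on irradiated p38DKI arrays, against 7.92, 8.0, 8.115, 7.71 and 7.99 on unirradiated p38DKI arrays. In p38DN they were 6.47, 5.21, 5.33, 4.08 and 6.31 on irradiated arrays, against 7.75, 7.06, 7.70, 6.23 and 6.15 on unirradiated arrays. In p38WT they were 3.70, 4.37, 4.82, 3.80 and 4.37 on irradiated arrays, against 7.885, 7.84, 7.62, 8.10 and 7.23 on unirradiated arrays. The doses were apart in p38DKI and p38WT and overlapped in p38DN, where irradiated arrays 1 and 5 exceeded the lowest unirradiated arrays. The fall was 5.99-fold in p38DKI (-2.58, SE 0.384, limma adjusted p = 1.4e-05), 2.82-fold in p38DN (-1.50, adjusted p = 0.00395) and 11.5-fold in p38WT (-3.525, adjusted p = 1.56e-07). Within slides the Igkc difference was -1.75 in p38DKI, -2.37 to 0.17 in p38DN and -2.93 in p38WT. The p38DKI difference of Igkc did not pass with the slide as a fixed block.

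Of the lambda constant regions, Iglc2 and Iglc3 fell in each genotype. Probe 1 of Iglc3 had levels of 3.31, 0.94, 3.50, 3.19 and 3.94 on irradiated p38DKI arrays, against 6.66, 7.06, 7.02, 6.79 and 6.57 on unirradiated p38DKI arrays. In p38DN they were 3.61, 4.29, 2.41, 3.58 and 3.32 on irradiated arrays, against 6.44, 6.21, 6.43, 5.29 and 5.13 on unirradiated arrays. In p38WT they were 3.60, 3.14, 2.43, 1.99 and 3.52 on irradiated arrays, against 6.79, 6.86, 6.49, 7.18 and 6.27 on unirradiated arrays. No irradiated array reached an unirradiated one in any genotype, and irradiated p38DKI array 2 was the lowest of all. Iglc3 fell 14.4-fold in p38DKI (-3.85, SE 0.415, limma adjusted p = 1.32e-07), 5.48-fold in p38DN (-2.455, adjusted p = 6.43e-05) and 13.8-fold in p38WT (-3.78, adjusted p = 1.7e-07). The overlapping probe 2 gave log2 changes of -3.83, -2.63 and -3.74. Iglc2 fell 14.7-fold in p38DKI, 5.37-fold in p38DN and 13-fold in p38WT (adjusted p = 1.18e-07, 7.19e-05 and 2.3e-07). Within slides the Iglc3 probe 1 difference was -3.48 in p38DKI, -4.02 to -1.71 in p38DN and -3.215 in p38WT. That of Iglc2 was -3.55, -4.07 to -1.45 and -3.10. The p38WT differences of Iglc2 and both Iglc3 probes did not pass with the slide as a fixed block.

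Iglc1 fell 5.57-fold in p38DKI (limma adjusted p = 0.00325) and 20.1-fold in p38WT (adjusted p = 8.4e-06), and its difference of -1.50 in p38DN did not pass the test (adjusted p = 0.0676). With the slide as a fixed block, which rests on the 1 slide of both doses, the p38DKI difference was -1.29 and did not pass (adjusted p = 0.616). The p38DN difference passed without the arrays highest in liver markers (-2.17, adjusted p = 0.0371), with the percentile taken over probes detected on all arrays (-1.65, adjusted p = 0.0414), with normexp and quantile normalisation (-1.29, adjusted p = 0.00167) and in the deposited table (-1.64, adjusted p = 0.000733). On the 5 slides of p38DN it was -1.96 to -0.80. The p38WT fall of Iglc1 included array 3 of the irradiated group at -3.12, against 0.43 to 1.85 on the other irradiated p38WT arrays, and the log2 change was -4.69 to -3.44 when the p38WT arrays were left out in turn. Iglc4 was dim after irradiation, being well above background on 1, 0 and 1 of the irradiated arrays of p38DKI, p38DN and p38WT and on 5, 2 and 5 of the unirradiated arrays. It fell 4.28-fold in p38DKI (adjusted p = 0.00302) and 2.76-fold in p38WT (adjusted p = 0.0341, but up to 0.136 and lost without irradiated array 1 or 5 or unirradiated array 1, 2, 3 or 4 of p38WT). In p38DN its log2 change was -1.515 (adjusted p = 0.0275, but up to 0.0851 and lost without irradiated array 1 or 4 or unirradiated array 1 or 2 of p38DN) and no fold is given, since no irradiated array measured it. In all, 6, 5 and 6 of the 6 light chain constant probes fell, with median log2 changes of -3.21, -1.97 and -3.72 in p38DKI, p38DN and p38WT. The share of all probes that fell was 18.8%, 10.5% and 12.1%.

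The switched heavy chain classes gave few calls. Of the 11 heavy chain constant probes, Ighd and Ighm included, 3 fell in p38DKI, 1 in p38DN and 5 in p38WT, and of the 6 IgG probes 1, 0 and 2 fell. Among all probes the shares that fell were 18.8%, 10.5% and 12.1%. Igha, the IgA heavy chain that mucosal plasma cells make in bulk, had levels of 6.90, 4.23, 4.60, 5.11 and 6.36 on irradiated p38DKI arrays, against 7.49, 6.23, 7.30, 6.15 and 7.24 on unirradiated p38DKI arrays. In p38DN they were 5.79, 4.32, 6.06, 3.44 and 5.77 on irradiated arrays, against 6.38, 4.68, 7.39, 4.85 and 4.96 on unirradiated arrays. In p38WT they were 2.26, 5.11, 4.67, 4.28 and 4.295 on irradiated arrays, against 6.09, 5.27, 6.13, 5.99 and 5.09 on unirradiated arrays. Arrays of the same group differed widely, irradiated p38DKI arrays 1 and 5 lay inside the unirradiated range, and irradiated p38WT array 1 was the lowest of all. The Igha difference was -1.44 in p38DKI (SE 0.584, limma adjusted p = 0.0604), -0.57 in p38DN (adjusted p = 0.5) and -1.59 in p38WT (adjusted p = 0.0421). Only the p38WT difference passed, and it was lost in 7 of 10 fits that each left out 1 array, namely without irradiated array 1, 4 or 5 or unirradiated array 1, 2, 3 or 4 of p38WT (log2 changes of -1.84 to -1.13 over the 10 fits, the smallest without irradiated array 1, adjusted p up to 0.156). In p38DKI it passed without irradiated array 1 or 5 (-1.81 and -1.67, adjusted p = 0.0246 and 0.0407). A further Igha probe gave -1.42, -0.70 and -1.56, with no adjusted p under 0.05 (0.0733, 0.415 and 0.0551). Its p38WT difference lay close to the threshold and passed under each other scaling, with normexp, in the deposited table, with the slide as a random block, with the replicate block, without the arrays highest in liver markers and without irradiated p38WT array 2 or 3 or unirradiated p38WT array 5 (-1.98 to -1.46, adjusted p = 0.00613 to 0.0458). In p38DKI it passed with the percentile over probes detected on all arrays, with the slide as a random block and without irradiated p38DKI array 1 or 5 (-1.78 to -1.51, adjusted p = 0.0326 to 0.0471), and in p38DN without the arrays highest in liver markers (-2.07, adjusted p = 0.0291). On the shared slide of p38DKI the Igha difference was 0.004, on that of p38WT -1.08, and on those of p38DN -1.41 to 0.81.

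Ighg2c, the IgG2c heavy chain of C57BL/6 mice, was read by 3 probes that did not give the same result. Probe 1 (chr12:114525496-114525555) had levels of 2.135, -0.12, -1.05, 0.99 and 1.84 on irradiated p38DKI arrays, against 3.975, 1.77, 2.50, 1.99 and 2.64 on unirradiated p38DKI arrays. In p38DN they were 2.425, 0.20, -1.31, 2.10 and 2.28 on irradiated arrays, against 1.26, 1.61, 2.74, -0.01 and 0.20 on unirradiated arrays. In p38WT they were -3.71, -2.03, 1.04, -3.81 and -1.93 on irradiated arrays, against 1.54, 1.08, 1.695, 1.33 and -0.25 on unirradiated arrays. The doses overlapped in every genotype, and irradiated p38WT array 3 stood with the unirradiated arrays. Probe 1 fell 8.98-fold in p38WT (limma adjusted p = 0.00349), and its differences of -1.82 in p38DKI and -0.02 in p38DN did not pass (adjusted p = 0.0807 and 0.99). Probe 3 fell 4.78-fold in p38WT (adjusted p = 0.0158), with -1.25 in p38DKI and -0.195 in p38DN (adjusted p = 0.166 and 0.87). With normexp background correction and quantile normalisation neither p38WT difference passed (-0.615 and -0.25, adjusted p = 0.151 and 0.443), and on the slide shared by both doses the probe 1 difference was -1.32 in p38WT. Probe 2, the dimmest, gave -0.79, -0.42 and -0.20 (adjusted p = 0.252, 0.595 and 0.826).

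Among the other switched classes, Ighg2b, the IgG2b heavy chain, fell 4.03-fold in p38DKI (limma adjusted p = 0.0176), a difference that no longer passed without unirradiated p38DKI array 1 (-1.62, adjusted p = 0.0632) and that was -0.065 on the slide shared by both doses. It differed by 0.03 in p38DN and -1.66 in p38WT (adjusted p = 0.983 and 0.0521), and the p38WT difference passed without irradiated p38WT array 3 (-1.88, adjusted p = 0.0391) or unirradiated p38WT array 5 (-1.94, adjusted p = 0.0318). Ighg3, for IgG3, differed by -1.76, 1.0 and -0.49 (adjusted p = 0.104, 0.398 and 0.718), and Ighe, for IgE, by -0.815, 1.23 and -0.255 (adjusted p = 0.252, 0.0938 and 0.783) in p38DKI, p38DN and p38WT. The p38DN rise of Ighe passed without scaling (1.33, adjusted p = 0.032) and with array-median scaling (1.25, adjusted p = 0.0378). It also passed with quantile normalisation (1.40, adjusted p = 0.0181) and without unirradiated p38DN array 1 (1.57, adjusted p = 0.0365). Without the arrays highest in liver markers it was 0.60 and did not pass (adjusted p = 0.523).

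Ighg1, the IgG1 heavy chain, spread widely in p38DN. Its levels in p38DN were 2.90, -4.81, -4.22, -5.33 and 2.87 on irradiated arrays (chr12:114567263-114567322), against -1.87, -3.04, -0.94, -3.61 and -4.62 on unirradiated arrays. Irradiated p38DN arrays 1 and 5 were high and the other 3 were among the lowest of the series, so the group had an SD of 4.22. In p38WT, Ighg1 was -4.25, -1.955, -3.18, -5.05 and -5.39 on irradiated arrays, against -1.15, -0.28, -0.65, -1.42 and -1.29 on unirradiated arrays. These did not overlap, yet the difference of -3.005 did not pass (limma adjusted p = 0.0567), the spread being shared over all groups. It passed without irradiated p38WT array 2 (-3.51, adjusted p = 0.0362). It also passed without scaling and with array-median scaling (-3.43 and -3.01, adjusted p = 0.0259 and 0.0474). With the percentile over probes detected on all arrays it was -3.18 (adjusted p = 0.0376). With the slide as a random block it was -3.03 (adjusted p = 0.0405). In the deposited table it was -2.785 and passed. Without the arrays highest in liver markers it did not pass (adjusted p = 0.0506). The differences were -1.51 in p38DKI and 1.10 in p38DN (adjusted p = 0.323 and 0.526). In the authors' deposited table of processed values, irradiated p38DN arrays 1 and 5 alone have an Ighg1 value in their group, the other 3 cells being empty, and a fit of that table without them gave 5.54 (limma adjusted p = 4.78e-06).

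**Figure D2:**
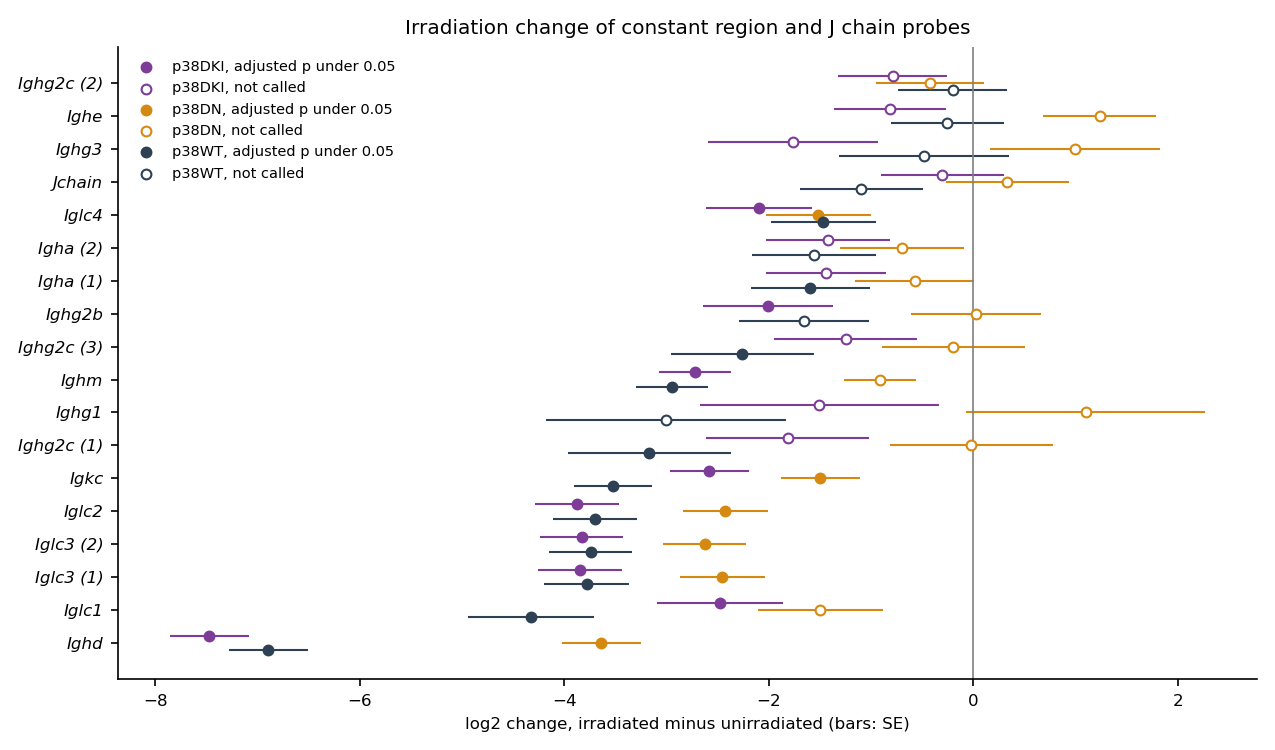
Log2 change (7 Gy minus 0 Gy) of the 17 constant-region probes and the J chain probe in p38DKI, p38DN and p38WT, with bars of ± SE; filled points had a limma adjusted p under 0.05, and numbers in parentheses mark different probes of the same gene. Ighd lies farthest to the negative side in each genotype, and the Jchain points are open in all 3.

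Jchain (chr5:88949919-88949978), which plasma cells and some activated B cells express, did not pass the test in any genotype. Its level was 4.58, 3.12, 2.62, 2.57 and 3.90 on irradiated p38DKI arrays, against 4.535, 2.70, 3.54, 3.24 and 4.31 on unirradiated p38DKI arrays. In p38DN it was 3.35, 0.575, 2.03, 0.33 and 3.39 on irradiated arrays, against 2.26, 0.59, 3.14, 1.04 and 0.98 on unirradiated arrays. In p38WT it was -0.41, 2.48, 1.17, 1.28 and 1.935 on irradiated arrays, against 2.88, 2.05, 2.49, 3.07 and 1.45 on unirradiated arrays. Irradiated and unirradiated arrays overlapped in every genotype, and irradiated p38WT array 1 stood below the rest. The differences were -0.31 in p38DKI, 0.33 in p38DN and -1.10 in p38WT (SE 0.601, limma adjusted p = 0.709, 0.728 and 0.186).

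Because each array measures all of these genes in the same RNA, the change of one relative to another does not depend on the array's scaling. The level of Ighd minus that of Ighm was -3.16 ± 0.426 on irradiated p38DKI arrays and 1.59 ± 0.412 on unirradiated p38DKI arrays (SD, n = 5 each). It was -2.96 ± 1.13 on irradiated and -0.23 ± 0.311 on unirradiated p38DN arrays, and -2.61 ± 0.364 on irradiated and 1.34 ± 0.139 on unirradiated p38WT arrays. Ighd thus fell by 4.75, 2.73 and 3.95 log2 units more than Ighm in p38DKI, p38DN and p38WT, with no overlap between the doses (two-sided exact permutation p = 0.00794 each, the smallest that 5 against 5 arrays allow, adjusted p = 0.0143 over 9 tests). In p38DN without the arrays highest in liver markers, which leaves 2 unirradiated arrays, the value was -2.94 and the adjusted exact p 0.0714.

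Jchain minus Ighm was 2.19 on irradiated p38DKI arrays and -0.22 on unirradiated p38DKI arrays, a difference of 2.41 (exact permutation p = 0.00794, adjusted 0.0143). In p38DN it was -0.82 on irradiated and -2.06 on unirradiated arrays, a difference of 1.24 (exact permutation p = 0.0952, adjusted 0.107). Same-numbered p38DN arrays of both doses shared a slide, and in 5 of 5 such pairs the irradiated array was higher, by 0.52 to 1.74 (exact sign-flip p = 0.0625, the smallest that 5 pairs allow). Without the arrays highest in liver markers the p38DN difference was 0.56 (exact permutation p = 0.571). In p38WT it was 0.235 on irradiated and -1.61 on unirradiated arrays, a difference of 1.85 (exact permutation p = 0.00794, adjusted 0.0143). Jchain relative to Ighm passed after adjustment in p38DKI and p38WT, and whether p38DN differed from them was not tested. Igha relative to Ighm differed by 1.28 in p38DKI, 0.335 in p38DN and 1.35 in p38WT, and passed after adjustment in none (exact permutation p = 0.0397, 0.675 and 0.0397, adjusted 0.051, 0.675 and 0.051). The p38DN value turned to -0.48 without the arrays highest in liver markers (exact permutation p = 0.714).

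**Figure D3:**
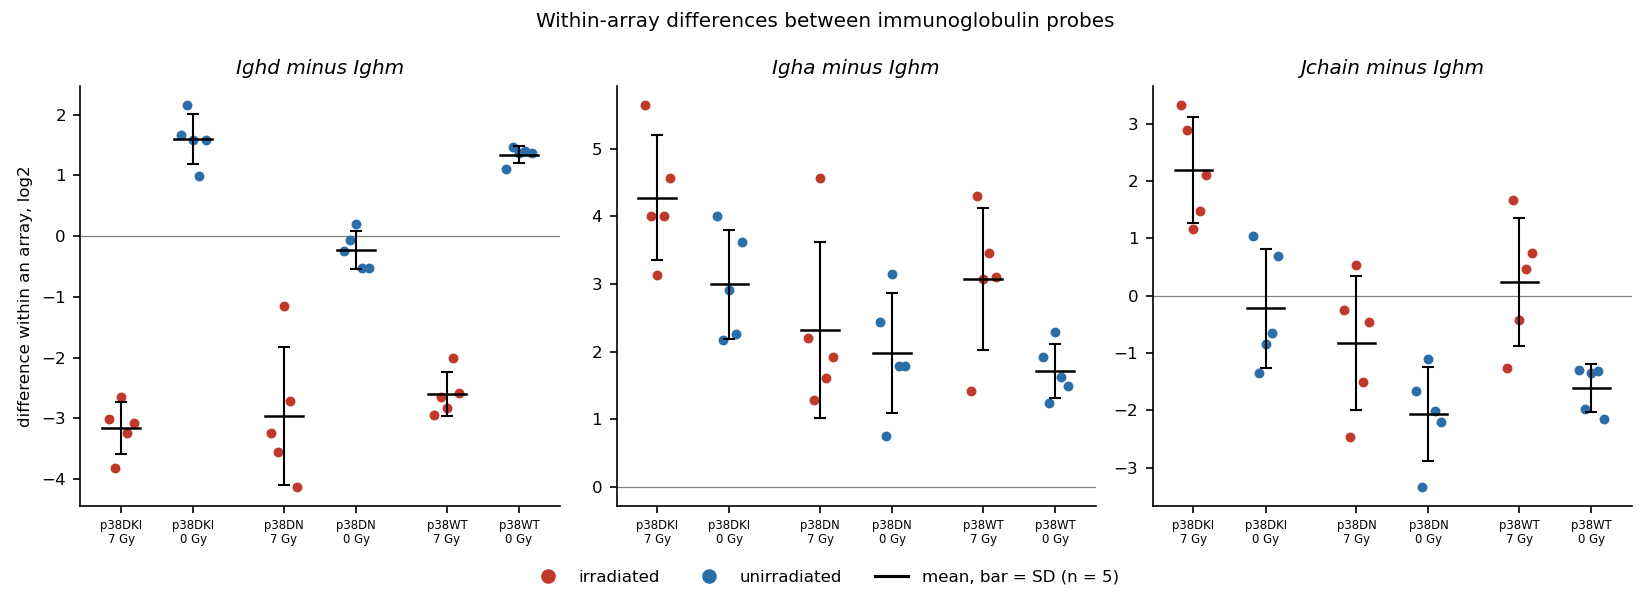
Differences in level between genes of the same array, for Ighd minus Ighm, Igha minus Ighm and Jchain minus Ighm, by genotype with 7 Gy left of 0 Gy; points are arrays and bars the mean and SD (n = 5). Ighd minus Ighm is lower at 7 Gy in each genotype, and Jchain minus Ighm is higher at 7 Gy in p38DKI and p38WT without overlap.

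The variable segments, joined in rearranged heavy and light chains, fell in most cases. Of 155 variable probes, 136 fell in p38DKI, 92 in p38DN and 130 in p38WT, with median log2 changes of -2.48, -1.385 and -2.725. Over all probes 18.8%, 10.5% and 12.1% fell, with medians of -0.24, 0.02 and -0.03. As said above, the signal criterion makes such counts lean towards falls. Of the 70 heavy variable probes 58, 34 and 53 fell, with medians of -2.37, -1.17 and -2.13. Of the 83 kappa variable probes 76, 57 and 75 fell, with medians of -2.585, -1.58 and -3.04. Both lambda variable probes fell in p38DKI and p38WT and 1 of them fell in p38DN. The median level of the 155 probes on an array lay between -4.07 and -2.51 on irradiated p38DKI arrays and between -1.245 and -0.67 on unirradiated ones. In p38DN it lay between -3.15 and -1.41 on irradiated and between -1.38 and 0.09 on unirradiated arrays, and in p38WT between -3.92 and -3.01 on irradiated and between -1.19 and -0.64 on unirradiated arrays. These medians did not overlap between doses in any genotype.

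By family, the 9 Igkv3 probes, for kappa segments, all fell in each genotype, with median log2 changes of -3.36 in p38DKI, -3.27 in p38DN and -3.19 in p38WT. The 34 probes of Ighv1, the large heavy chain family also called J558, fell in 32, 26 and 31 cases, with medians of -2.69, -1.59 and -2.65. The 20 Igkv4 probes fell in 17, 15 and 16 cases, with medians of -2.19, -1.13 and -2.65. Beside these counts, 18.8%, 10.5% and 12.1% of all probes fell in p38DKI, p38DN and p38WT. Several other families had smaller changes in p38DN. The 7 Igkv8 probes had medians of -2.74, -0.94 and -3.095, the 7 Ighv5 probes -2.25, -0.91 and -2.15, and the 4 Igkv2 probes -2.46, -1.23 and -2.87, with 0 of the 4 Igkv2 probes passing limma's test in p38DN. Family members share sequence, as the Igkv3 probes show, so a family's count is not a count of independent readings.

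**Figure D4:**
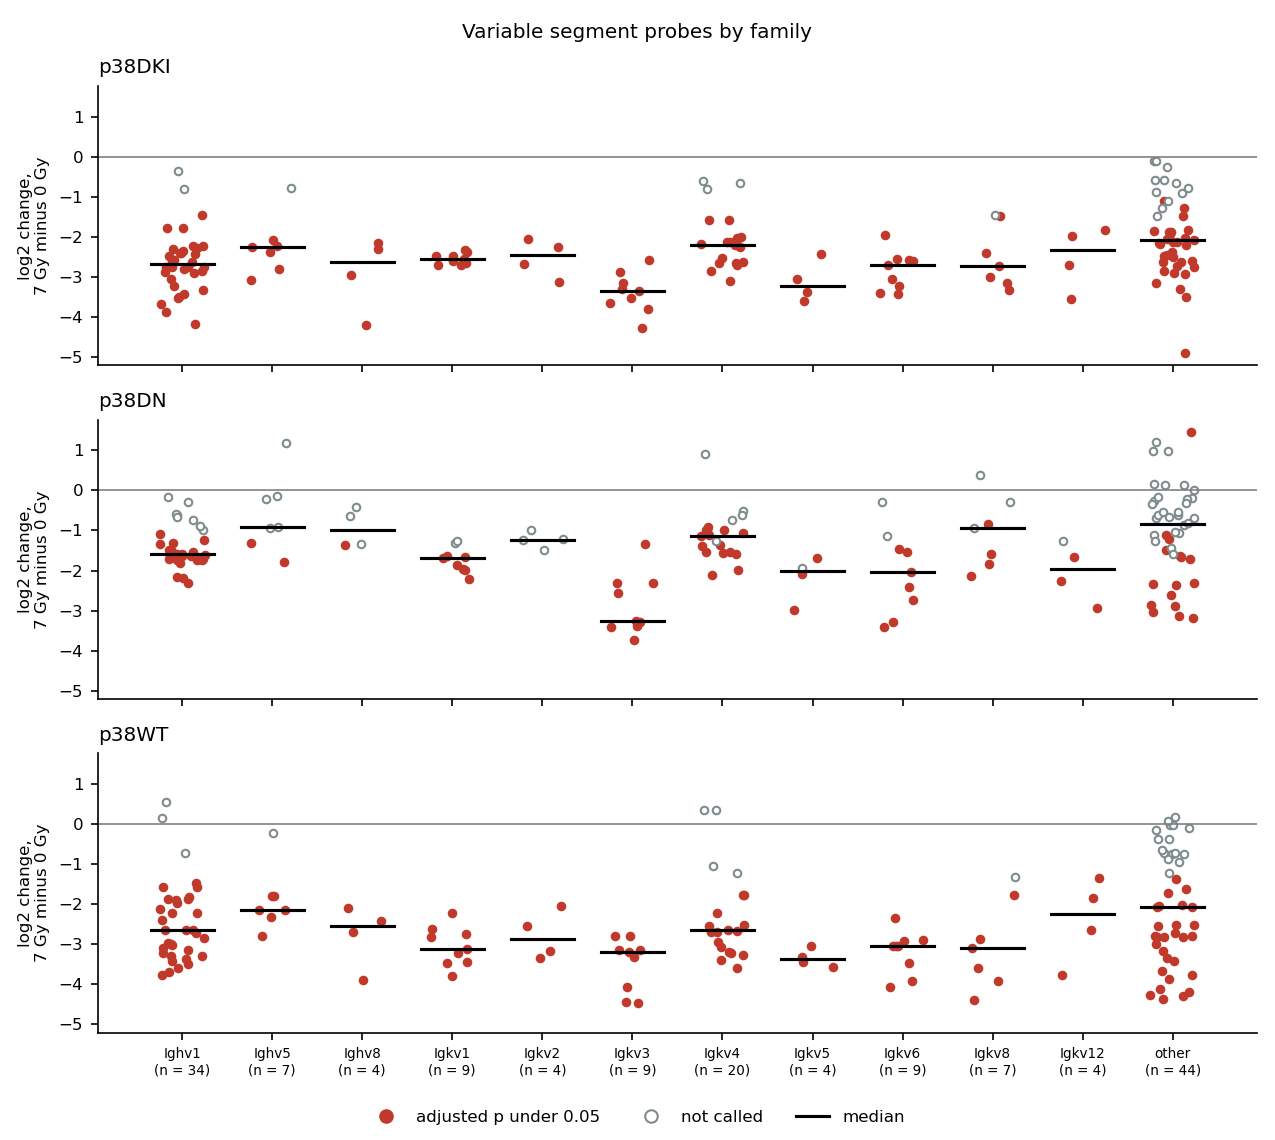
Log2 change (7 Gy minus 0 Gy) of the 155 variable-segment probes by family in p38DKI, p38DN and p38WT; each point is a probe, bars are family medians, and families with fewer than 4 probes are pooled as other. In p38DN the Igkv3 median of -3.27 lies below the medians of the other families shown, of which the lowest is -2.04 (Igkv6).

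The 5 probes each at the low and high end of the p38WT changes were described for themselves, a choice that uses the p38WT values. Igkv3-10 probe 1 had the lowest p38WT change of the variable probes. Its levels were -3.94, -2.42, -3.43, -4.48 and -1.52 on irradiated p38DKI arrays, against 0.47, 0.20, 0.71, 0.085 and 0.33 on unirradiated p38DKI arrays. In p38DN they were -3.32, -2.29, -4.54, -3.41 and -2.91 on irradiated arrays, against 1.03, 0.42, 1.23, -0.14 and -0.27 on unirradiated arrays. In p38WT they were -4.88, -4.83, -4.54, -4.44 and -2.04 on irradiated arrays, against 0.28, 0.22, 0.54, 0.66 and -0.09 on unirradiated arrays. The doses were far apart in every genotype, and 3, 2 and 1 of the irradiated arrays were well above background in p38DKI, p38DN and p38WT. The fall was 11.4-fold in p38DKI (limma adjusted p = 6.88e-06) and 13.4-fold in p38DN (adjusted p = 3.32e-06), and the p38WT change that chose it was 22.1-fold (-4.47). Igkv3-4 probe 1 (chr6:70622214-70622273) fell 19.4-fold and 9.78-fold in p38DKI and p38DN (adjusted p = 6.94e-10 and 7.81e-08), beside 21.6-fold in p38WT.

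Igkv8-28, the third of these, had levels of -0.13, -2.17, -0.61, -2.195 and -0.40 on irradiated p38DKI arrays, against 1.93, 1.98, 2.44, 1.865 and 2.01 on unirradiated p38DKI arrays. In p38DN they were 1.25, -0.65, -0.71, -1.49 and 0.99 on irradiated arrays, against 2.45, 1.91, 2.24, 1.02 and 0.89 on unirradiated arrays. In p38WT they were -2.44, -2.46, -1.79, -2.63 and -2.84 on irradiated arrays, against 2.11, 2.12, 1.70, 2.32 and 1.60 on unirradiated arrays. In p38DN irradiated arrays 1 and 5 reached the unirradiated range, which they did not in the other genotypes. It fell 8.84-fold in p38DKI and 3.55-fold in p38DN (limma adjusted p = 5.68e-06 and 0.00219), beside 21.1-fold in p38WT. Igkv9-124 (chr6:67892237-67892296) and Igkv9-120 (chr6:68000253-68000312) were not well above background on any irradiated p38WT array and were at least 12.6-fold and at least 10.6-fold lower there. They fell 7.18-fold and 6.73-fold in p38DKI, and 6.14-fold and 5.14-fold in p38DN.

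At the high end in p38WT were Ighv1-49, Igkv4-72, an Igkv4-53 probe, Ighv7-1 and Ighv1-56, with log2 changes of 0.56, 0.36, 0.34, 0.19 and 0.16 that did not pass. Their changes were -0.81 to -0.35 in p38DKI and -0.74 to -0.29 in p38DN, and passed in neither. The other Igkv4-53 probe, at a known position, fell 6.16-fold, 2.92-fold and 12.1-fold in p38DKI, p38DN and p38WT, so the probes of that name disagreed. The only probe of the 173 that rose in any genotype was Ighv7-3 (chr12:115391424-115391483), named here after its values were seen. Its levels were -2.32, -2.58, -1.99, -2.665 and -2.08 on irradiated p38DN arrays, against -4.54, -3.755, -2.95, -3.07 and -4.545 on unirradiated p38DN arrays, none of which was well above background. It was at least 1.6-fold higher in irradiated p38DN blood (limma adjusted p = 0.0107), while it fell in p38DKI, by at least 1.26-fold (log2 change -2.08, adjusted p = 0.000532), and in p38WT (log2 change -1.38, adjusted p = 0.0154), where no irradiated array was well above background and no fold is given.

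As a description across the 155 variable probes, which share their arrays and in part their sequences, the changes in p38DKI and p38WT correlated with a Pearson r of 0.85 (Spearman rho 0.824). Those in p38DN and p38WT had an r of 0.69 (rho 0.711), and those in p38DKI and p38DN an r of 0.691 (rho 0.70). Each genotype has its own unirradiated arrays. Position in the locus went with the change only weakly. Over 69 heavy variable probes the correlation of the change with the distance from the Ighm probe was -0.236, -0.372 and -0.283 in p38DKI, p38DN and p38WT. The 69 include Igh-VJ558, which lies on the Igha side of Ighm, away from the other variable probes. Over 82 kappa variable probes the correlation with the distance from the Igkc probe was 0.315, 0.29 and 0.133.

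The spread between arrays of a group was larger in the irradiated groups, a difference that was not tested. The median SD of the variable probes was 0.83 on irradiated and 0.331 on unirradiated p38DKI arrays, 0.845 and 0.715 on irradiated and unirradiated p38DN arrays, and 0.72 and 0.315 on irradiated and unirradiated p38WT arrays. Over all probes it was 0.592 and 0.349, 0.43 and 0.426, and 0.426 and 0.294 in the same order. Single arrays that stood more than 2 log2 units above their group's median were counted as a description. In irradiated p38DN blood 18 of 155 variable probes had such an array (11.6%, against 1.15% of all probes), of which array 1 held 12 and array 5 held 13. In irradiated p38DKI blood the share was 7.1% (6.22% of all probes), and in irradiated p38WT blood 5.81% (2% of all probes). The same arrays 1 and 5 of irradiated p38DN held the high Ighg1, Igkc and Jchain levels given above.

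Genotypes were compared at each dose and in their response to irradiation. In unirradiated blood, 0 of the 173 probes differed between p38DKI and p38WT by limma at an adjusted p under 0.05, beside 0.102% of all probes. At an unadjusted p under 0.05, 2 were higher and 0 lower, beside 5.29% of all probes higher and 1.98% lower. No antibody probe passed in this comparison under any alternative that was run. In irradiated blood, 8 of 173 were higher in p38DKI than in p38WT and 0 were lower, beside 1.41% of all probes higher and 4.28% lower. At an unadjusted p under 0.05, 24 (13.9%) were higher and 1 was lower, beside 8.71% of all probes higher and 16.5% lower. The 8 were Jchain, 2 Ighg2c probes and the kappa segments Igkv9-120, Igkv9-124, Igkv10-94, Igkv10-96 and Igkv13-84. Ighg2c probe 1 was 7.2-fold higher (2.85, SE 0.794, adjusted p = 0.0348) and Jchain 4.19-fold higher (2.07, adjusted p = 0.0408), and each lost its call in 6 of 10 fits that left out 1 array, with adjusted p of up to 0.1 and 0.103. Both lost it without irradiated p38WT array 1 or 4 or irradiated p38DKI array 1, 2 or 5, Ighg2c also without irradiated p38WT array 2 and Jchain also without irradiated p38WT array 3. Both also lost it without the arrays highest in liver markers (3.07 and 2.13, adjusted p = 0.0529 and 0.0679). Igkv9-124 (1.65, adjusted p = 0.00871, at least 1.92-fold) kept its call in all 10. Without irradiated p38WT array 4 the count was 2, without irradiated p38WT array 1, irradiated p38DKI array 1 or irradiated p38DKI array 5 it was 4, and with the slide as a fixed block it was 0. The difference in response to irradiation between p38DKI and p38WT passed for 0 probes by limma, beside 0.00847% of all probes. At an unadjusted p under 0.05, 6 (3.47%) were higher and 1 lower, beside 3.26% of all probes higher and 10.7% lower. Without scaling 2 passed.

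The p38DN arrays shared no slide and no scan day with the p38WT arrays, so batch and genotype cannot be told apart in the direct comparisons of the p38DN and p38WT levels. In unirradiated blood 5 of the 173 probes were lower and 12 higher in p38DN, beside 37.2% of all probes lower and 17.7% higher. The split depended on scaling, with 26 lower and 6 higher without scaling and 9 lower and 31 higher after normexp and quantile normalisation. Without the arrays highest in liver markers 1 was lower and 25 were higher. Ighd was 3.75-fold lower in unirradiated p38DN than in unirradiated p38WT blood (-1.91, limma adjusted p = 0.000151), and without the arrays highest in liver markers the log2 difference was -1.28 (adjusted p = 0.0068). Ighv1-49 (chr12:116293623-116293682) had levels of 0.91, 0.20, 0.65, 0.11 and 0.41 in unirradiated p38DN, against -5.79, -5.29, -5.78, -5.19 and -4.68 in unirradiated p38WT blood, where no array was well above background, and was at least 15.8-fold higher. On irradiated arrays it had 0.58, -1.07, 0.45, -0.77 and 0.055 in p38DN, against -3.38, -5.09, -4.25, -5.44 and -5.78 in p38WT. The p38DN arrays of both doses thus stood apart from all others in this probe, which was chosen for its p38WT change. In irradiated blood 92 of the 173 were higher in p38DN than in p38WT and 0 lower, beside 15.6% of all probes higher and 27.6% lower. At an unadjusted p under 0.05, 107 (61.8%) were higher and 1 lower, beside 18.3% of all probes higher and 32.1% lower.

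The difference in response between p38DN and p38WT compares the change in each genotype. In p38DN each slide held both doses, while in p38WT only 1 slide did. The p38WT change thus lies mostly between slides, and slide effects do not cancel in this difference. By limma, 9 of the 173 probes had a higher, less negative change in p38DN and 0 a lower one, beside 1.1% of all probes higher and 0.749% lower. At an unadjusted p under 0.05, 73 (42.2%) were higher and 1 lower, beside 11% of all probes higher and 7.75% lower. Ighd differed by 3.26 (SE 0.546, adjusted p = 0.00591), Ighm by 2.04 (adjusted p = 0.0359) and Igkc by 2.03 (adjusted p = 0.0487). The others were 6 variable probes, among them Igkv8-28, Igkv6-17, Igkv4-63, Ighv2-2 and Ighv7-3, with differences of 1.955 to 2.92. The mean Ighd level was -0.20 in irradiated p38DN and 3.435 in unirradiated p38DN blood, beside -1.55 and 5.34 in irradiated and unirradiated p38WT blood. That of Ighm was 2.76 and 3.67 in irradiated and unirradiated p38DN, beside 1.06 and 4.0 in irradiated and unirradiated p38WT blood. Igkv8-28 and Igkv6-17 share the 40 bases shown above. The count was 2 without the arrays highest in liver markers (Ighd 2.63, adjusted p = 0.00479, and Ighv7-3 2.80, adjusted p = 0.0243), 0 without the arrays highest in heart markers, and 0 with the slide as a fixed block. Leaving out 1 array at a time it was 2 to 17, with 2 without irradiated p38WT array 2, unirradiated p38WT array 1, 2 or 4 or unirradiated p38DN array 4 or 5, and 17 without irradiated p38DN array 4. It was 3 without irradiated p38WT array 4, 4 without unirradiated p38WT array 3 or irradiated p38DN array 2, 5 without unirradiated p38DN array 2 and 14 without unirradiated p38DN array 3. Ighd and Ighv7-3 kept their calls in all 20 such fits, whereas Ighm lost its call in 10 (differences of 1.76 to 2.35, adjusted p up to 0.0741) and Igkc in 15 (1.78 to 2.38, adjusted p up to 0.0938).

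Markers of the cells that make and bind antibodies were set beside these values as counts. Of 23 mature B cell markers, 23 fell in p38DKI, 22 in p38DN and 21 in p38WT, with medians of -3.76, -2.26 and -3.89. Over all probes 18.8%, 10.5% and 12.1% fell, with medians of -0.24, 0.02 and -0.03. Their mean level was -2.54 to -0.18 on irradiated and 2.41 to 3.22 on unirradiated p38DKI arrays, -0.62 to 0.51 on irradiated and 1.40 to 2.81 on unirradiated p38DN arrays, and -1.14 to -0.47 on irradiated and 2.615 to 3.175 on unirradiated p38WT arrays. The ranges of these B cell marker means did not overlap between doses in any genotype. Fcer2a, the low-affinity IgE receptor of mature B cells, fell 51.3-fold in p38DKI, 35-fold in p38DN and 60.6-fold in p38WT. Fcmr, the IgM Fc receptor, changed by -5.59, -4.46 and -5.03 on the log2 scale, and Tnfrsf13c, the receptor of B cells for the survival factor BAFF, by -4.99, -3.44 and -5.42. How far the antibody changes follow the number of B cells was not tested.

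Of 24 plasma cell and antibody secretion genes, 5 fell and 8 rose in p38DKI, 3 fell and 4 rose in p38DN, and 5 fell and 3 rose in p38WT, with medians of 0.24, -0.07 and -0.145. Over all probes 18.8%, 10.5% and 12.1% fell and 11.9%, 18.1% and 15.3% rose. Several of these genes serve secretion in every cell type. Tnfrsf13b, the TACI receptor of B and plasma cells, fell by 2.86, 2.0 and 2.90 log2 units, and Mzb1, a chaperone of antibody assembly, by 2.16, 0.94 and 2.16. Sec11c, a subunit of the signal peptidase, rose by 1.19 in p38DN and 1.26 in p38WT and differed by 0.67 in p38DKI, which did not pass. Xbp1, Prdm1, Irf4 and Tnfrsf17 are named after their values were seen. Xbp1, a regulator of the secretory programme, rose by 1.04 in p38DKI, and differed by 0.28 in p38DN and 0.07 in p38WT, which did not pass. Prdm1, the regulator of plasma cell identity, differed by -0.08, 0.23 and 0.03 and passed in no genotype. Irf4 fell by 1.69 in p38DKI and 1.805 in p38WT (limma adjusted p = 0.00184 and 0.000989). Its p38DN difference was -0.02 and did not pass. Tnfrsf17 fell by 1.74 in p38DKI (adjusted p = 0.0253). It differed by -0.59 in p38DN and -1.53 in p38WT, which did not pass (adjusted p = 0.487 and 0.0517).

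The counts of the next 3 lists stand beside 18.8%, 10.5% and 12.1% of all probes that fell in p38DKI, p38DN and p38WT. The shares of all probes that rose were 11.9%, 18.1% and 15.3%. Of 9 measured B cell precursor genes among 13 listed, 5 fell and 1 rose in p38DKI, 3 fell and 1 rose in p38DN, and 5 fell and 1 rose in p38WT. Of 17 measured recombination and class switching genes among 19, 10, 3 and 9 fell and 1 rose in each genotype. The riser, named after its values were seen, was Dclre1c, which encodes the hairpin-opening nuclease Artemis, with 0.64, 0.99 and 0.87. Of 10 antibody Fc and transport receptors, 1 fell and 3 rose in p38DKI, 0 fell and 3 rose in p38DN, and 2 fell and 4 rose in p38WT, among them, chosen after their values were seen, Fcgr4 (1.19, 1.71 and 1.90) and Fcgr3 (1.30, 1.57 and 1.42), the activating IgG receptors of myeloid cells.

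Markers of other blood cells are read against the shares of all probes that fell and rose, given just above for the secretion genes. T cell markers (17 of 20 measured) fell in 11, 5 and 5 cases in p38DKI, p38DN and p38WT and rose in 0, 1 and 0. Neutrophil markers (16 of 17) rose in 12, 2 and 14 cases and fell in 1, 0 and 0. Platelet markers (14) rose in 6, 14 and 13 cases and erythroid markers (16) fell in 10, 8 and 8 and rose in 1, 3 and 3. In p38WT the mean level of the neutrophil markers was 4.01 to 4.54 on irradiated and 1.61 to 3.29 on unirradiated arrays. The part of these cells in the antibody values was not tested.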

How the data were processed

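Single-colour Agilent arrays measured Cy3-labelled RNA of 30 blood samples (6 groups of 5). The deposited intensity values are Agilent Feature Extraction 12.0.2 processed signals, background-subtracted per the file headers, with flags for spots well above background. The authors' deposited table holds log2 values that equal the scanner values within 0.01 for 99.5% of cells after 1 constant per array, and 21825 of its cells are empty. Its normalisation is not given in the sources used here, and its column medians were 4.77 to 5.77.

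Control spots (43020 of 44397 spots were not controls) and outlier spots were left out, spots of a probe were averaged, and log2 signals were centred on each array's 75th percentile. Probes well above background on at least 4 of 5 arrays of a group were fitted with limma 3.58.1 (lmFit, eBayes) in R 4.3.3, all 6 groups together, without a replicate block (24 residual degrees of freedom), with Benjamini-Hochberg adjustment and a threshold of 0.05. No antibody probe was saturated, and 1 probe described by a human sequence was left out. Within-array differences were tested by exact permutation over arrays in R. Python 3.11.15 was used to read the scanner values, compare probe sequences and draw the figures. Named genes were all constant-region and J chain probes, the 5 lowest and 5 highest variable probes by p38WT change, and the 3 genes of smallest p in p38WT in the B cell and secretory lists. Further list genes are marked as chosen after their values were seen. The members and lists were chosen with earlier results of these data known. In simulated data for the p38WT irradiation effect over 23617 probes, falls of 0.5, 1, 2 and 4 log2 units were found in 2%, 40%, 76% and 98% of 50 changed probes each, with 3 false calls. The adjustment depends on how many probes change, and in the real p38WT comparison 2850 fell and 3605 rose. The simulated rates therefore do not give the detection rate of the real test. Replicate numbers were not taken as pairs in the main fit. Correlations of same-numbered deviations ran from -0.204 to 0.392 in p38DKI, -0.139 to 0.289 in p38WT and -0.14 to 0.384 in p38DN. Since the p38DN arrays did share slides in pairs, these values cannot tell paired from unpaired samples. Per the file headers, same-numbered p38DN arrays of both doses shared a slide and a scan day, and the replicate block left the p38DN count at 98. Array numbers limit precision. Alternatives were other scalings, normexp with an offset of 50, the deposited table, no filter, slide blocks, a replicate block and left-out arrays.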

Additional observations from a re-analysis of the deposited data

Results flagged for a closer look

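Of 168 checks of a named probe in a group of 5 arrays, 9 had an array far from the other 4, where chance gives about 1 in 20. Ighg3 was 0.69 on irradiated p38WT array 3, against -5.23 to -3.69 on the others, and none of these 5 arrays was well above background. Iglc1 was -3.12 on the same array, against 0.43 to 1.85. Irradiated p38DKI array 2, the array highest in liver markers, was low in 3 lambda probes, with Iglc2 at 0.63 (others 2.88 to 3.62), Iglc3 probe 1 at 0.94 (others 3.19 to 3.94) and Iglc3 probe 2 at 0.68 (others 2.89 to 3.695). Irradiated p38WT array 4 was low in Iglc3 probe 2, at 1.60 (others 2.71 to 3.10), and high in Ighv1-56, at -0.037 (others -1.02 to -0.81). Igkv3-10 probe 1 was -2.04 on irradiated p38WT array 5 (others -4.88 to -4.44). Igkv8-28 was 2.44 on unirradiated p38DKI array 3 (others 1.865 to 2.01).

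The response to irradiation differed between p38DN and p38WT by limma's interaction term for 9 probes. Among the named probes these were Ighd with 3.26, Ighm with 2.04, Igkc with 2.03 and Igkv8-28 with 2.57 on the log2 scale, each less negative in p38DN. Igkv8-28 was named for its low p38WT change, a choice that by itself favours a less negative change in p38DN. Without the arrays highest in liver markers, Ighd alone of these 4 passed (2.63, adjusted p = 0.00479).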

How the results depend on the processing

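The counts of antibody probes that changed after irradiation stayed within 1.5 times of those reported in p38DKI, p38DN and p38WT under every alternative run except the slide as a fixed block, which left 36 in p38DKI and 40 in p38WT, where each has 1 slide with both doses. With that block 0 probes passed in irradiated p38DKI against p38WT and 0 in the p38DN minus p38WT response, and no such fit was possible for the p38DN and p38WT levels. For irradiated p38DKI against p38WT the count was 14 without scaling, 1 with normexp and quantile normalisation and 4 without the arrays highest in heart markers, an alternative chosen after seeing the data. For unirradiated p38DN against p38WT it was 32 without scaling, 40 with normexp, 26 without the liver arrays and 10 without the heart arrays, and for the irradiated groups 54 with normexp. For the p38DN minus p38WT response it was 28 without scaling, 16 in the deposited table, 2 without the liver arrays and 0 without the heart arrays, and for p38DKI minus p38WT 2 without scaling. Without scaling the median change of all probes was 0.38, 0.12 and -0.455 in p38DKI, p38DN and p38WT, and the antibody medians stayed negative (-1.845, -1.26 and -3.15). Leaving out 1 array at a time gave 141 to 149 calls in p38DKI, 73 to 107 in p38DN and 136 to 144 in p38WT, 0 to 0 for unirradiated and 2 to 9 for irradiated p38DKI against p38WT, 12 to 18 for unirradiated and at least 82 for irradiated p38DN against p38WT, 0 to 0 for the p38DKI and 2 to 17 for the p38DN response against p38WT. The Ighd minus Ighm difference then ran from -4.90 to -4.59, -3.18 to -2.44 and -4.10 to -3.86 in p38DKI, p38DN and p38WT, Igha minus Ighm from 0.94 to 1.56, -0.23 to 0.63 and 1.045 to 1.77, and Jchain minus Ighm from 2.13 to 2.73, 0.90 to 1.65 and 1.49 to 2.22. Igha minus Ighm in p38WT was 1.39 and passed in the deposited table (adjusted exact p = 0.0475), and Ighd minus Ighm in p38DN was -2.94 and did not pass without the liver arrays. A replicate block gave 146, 98 and 142 calls in p38DKI, p38DN and p38WT. With replicate numbers as pairs, the exact sign-flip test cannot go below p = 0.0625, so Ighd minus Ighm (-4.75, -2.73 and -3.95) and Jchain minus Ighm in p38DKI and p38WT (2.41 and 1.85) could not pass. The random slide block had a correlation of -0.052. Over the named probes, 1813 single values kept their call and direction, 66 gained a call, 41 lost it and 0 reversed. The causes of these changes were not tested. Brightness over background limits the dim probes most, as the lower bounds show.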
